A study of Mus musculus with 3 samples.

Results

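The genes described here are 46 genes of mouse chromosome 15, taken by their symbols from a list and followed as a summed share of the transcripts of each cell. All 46 were found among the 32285 genes of the count matrices, and all 46 lie on chromosome 15 in the GENCODE M21 annotation. The list runs from Myc and its neighbour Pvt1 to ribosomal proteins, translation factors, tubulins and keratins. The members were selected on their levels in tumour and host cells of these same libraries, so the difference between tumour and host is given below as a description. The data are RNA. The number of copies of the chromosome was not measured.

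Single cells were sequenced from tumours that LLC1-sgLkb1 cells formed in mice. LLC1 is a line of Lewis lung carcinoma, and the labels of all 3 samples give it as an LKB1 knockdown. Cells were first seeded to the lung through the tail vein and, 3 weeks later, placed under the skin as the site to be irradiated. The sampled tissue is named as tumour, with no word on which of the sites it came from. The library Flox+ICI came from a host with a floxed Sfrp2 gene given an immune checkpoint inhibitor, and Flox+RI from a floxed host given radiation and the inhibitor. CKO+RI is labelled as a host in which Sfrp2 was deleted in Col1a2-expressing cells, given radiation and the inhibitor. Each group has 1 library, and the labels do not say how many animals went into it. No difference between groups therefore has a replicate check, and intervals below cover counting error only.

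MYC is a transcription factor that drives growth, ribosome production and cell division, and Pvt1 is a long non-coding RNA gene beside it. In many tumours the stretch of chromosome that holds both is gained. When a cell carries an extra copy of a whole chromosome, the RNA of its genes tends to go up together by a modest step, while a gene set by a cell's identity goes its own way. The summed share of a chromosome in a cell's RNA is therefore used as a rough readout of dosage, and it also moves with the few abundant genes in the sum.

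The matrices of Flox+ICI, Flox+RI and CKO+RI held 10842, 13340 and 9300 barcodes, with 75543561, 101840883 and 161250286 transcripts counted by unique molecular identifier (UMI). After filtering and removal of doublets, 9777, 11706 and 8383 cells were kept, with a median of 3018, 2576.5 and 13406 UMIs. Between 31 and 37 barcodes were shared by each pair of libraries. In fibroblasts Sfrp2 had its highest count, 37 UMIs, in the library labelled CKO+RI, where the label would have it lowest, against 3 in Flox+ICI and 1 in Flox+RI. Which stretch of the gene was deleted is not stated, so these counts do not settle the label. Stk11, the gene for LKB1, was counted in tumour cells of all 3 libraries at 35.4, 29.6 and 33.0 UMIs per 1000000 UMIs of the class (CPM), and a guide can disable a protein without lowering its RNA.

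Tumour cells were taken from clusters with Xist below 20 CPM and with the fixed Lewis lung carcinoma markers above the other clusters. Chromosome 15 genes took no part in the clustering. Xist, the RNA of the inactive X chromosome of female cells, stood at 2.52, 3.62 and 2.29 CPM in these clusters and between 45.9 and 459 CPM in the host classes. Erythroid cells, marked by haemoglobin genes, were low in Xist as well and were not used as a host class; they numbered 28, 27 and 192, and in CKO+RI had 3.21 CPM. In the gated tumour cells the summed tumour markers reached 3279, 4997 and 2466 CPM. The gate held 2799, 1841 and 2273 cells, in the order Flox+ICI, Flox+RI, CKO+RI that is kept below. Another 371, 2232 and 2276 cells lay in 3 further clusters with low Xist, which stayed unnamed because their markers did not meet the naming rule. They are given beside the tumour cells. Their summed tumour markers stood at 2814, 2622 and 3132 CPM, above the gated cells in CKO+RI. Other unnamed clusters, with 207, 2908 and 451 cells, entered neither tumour nor host.

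The members together made up a larger share of the RNA in tumour cells than in the average host class. In Flox+ICI they took 2.68% of tumour UMIs, against a mean of 1.39% over 9 host classes that each counted equally. In Flox+RI the shares were 3.37% and 1.92%, and in CKO+RI 2.67% and 1.61%. The ratio of tumour to host was 1.93, 1.76 and 1.66. Neither these classes nor the erythroid cells of CKO+RI, at 2.02%, reached the tumour share of their own library. With the erythroid cells as a further host class the ratio in CKO+RI was 1.61. Of the host classes, T cells came nearest in Flox+ICI at 1.93%, and fibroblasts in Flox+RI at 2.59% and in CKO+RI at 1.99%. The unnamed clusters with low Xist had 3.01%, 3.83% and 2.76%, above the named tumour cells in all 3 libraries. One further unnamed cluster, led by platelet and heart muscle genes (Ppbp, Gp9, Myl7), held 814 cells at a median of 1192.5 UMIs. It took 2.97%, 3.92% and 2.78%, above the named tumour cells in all 3 libraries, and was not used as a host class. In this cluster Myc stood at 93.7, 54.7 and 107 CPM and Krt8 at 565, 877 and 666 CPM. Whether its droplets held tumour RNA was not tested.

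**Figure D1:**
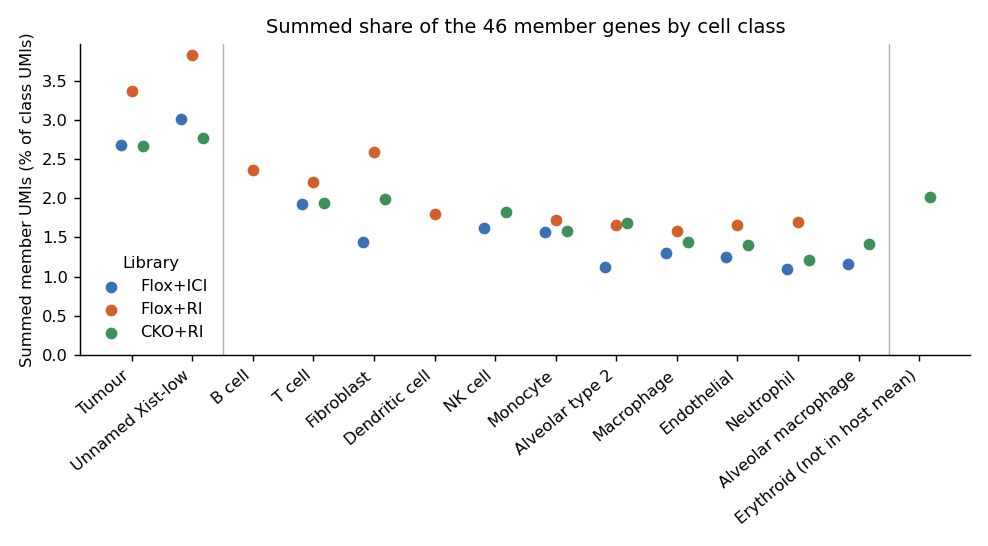
Summed UMIs of the 46 member genes as a percentage of all UMIs of a cell class (vertical axis), for tumour cells, the unnamed clusters with low Xist each host class with at least 50 cells and, set apart, the erythroid cells of CKO+RI (horizontal axis), 1 point per library. Tumour cells sit at 2.68%, 3.37% and 2.67%, the highest class of the host mean in each library at 1.93%, 2.59% and 1.99%, and the erythroid cells at 2.02%.

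A few abundant genes carried most of this sum. Lgals1 gave 23.9% of the tumour members' UMIs as a mean over the libraries, Rpl8 23.2%, Rpl3 10.8%, Rpl30 8.72% and Pvt1 7.10%. Without these 5 the ratio of tumour to host was 1.39, 1.48 and 1.19. Ribosomal proteins encoded off chromosome 15 also took more of the tumour RNA, with 23.4%, 23.8% and 28.5% against 14.1%, 19.5% and 18.0% in the host mean. With the 3 ribosomal members left out, the other 43 members still took 1.55%, 1.99% and 1.46% of tumour UMIs and 0.743%, 0.997% and 0.868% of host UMIs.

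The remaining 1087 genes of chromosome 15 did not share this difference. They took 2.36%, 2.90% and 2.16% of tumour UMIs, against 2.49%, 2.49% and 2.44% in the host mean. The ratio was 0.948, 1.16 and 0.886, so it lay above 1 in Flox+RI alone. Endothelial cells were the highest host class for these genes, at 3.71%, 2.86% and 3.28%, and raised the host mean. The next class stood at 2.57% in Flox+ICI (T cells) and 2.56% in CKO+RI (monocytes). A ratio without endothelial cells was not formed. Against the mean of all 9 host classes, a higher tumour share was thus measured for the listed genes in all 3 libraries. For the rest of the chromosome it was measured in 1 of 3, a count that depends on the endothelial cells being in the mean.

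Gene by gene, 44 of the 46 members reached a mean of 10 CPM over tumour and host, and 18 of them were at least 1.5-fold higher in tumour cells in all 3 libraries, or 40.9%. By the same rule 20.1% of all 9537 tested genes were higher. One member was at least 1.5-fold lower in all 3 libraries, where 22.8% of all tested genes were, and 25 members met neither rule. Among the chromosome 15 genes outside the list, 72 of 344 were higher (20.9%) and 62 lower (18.0%), close to the background. The members' median log2 ratio was 0.87, 0.68 and 0.49, that of the other chromosome 15 genes 0.12, 0.40 and -0.02, and that of all genes 0.11, 0.12 and 0.03. Just inside the threshold lay Rpl8, with a smallest ratio of 1.56, and just outside it Tuba1b with 1.47. All ratios of a gene are formed after adding 1 CPM to both levels.

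**Figure D2:**
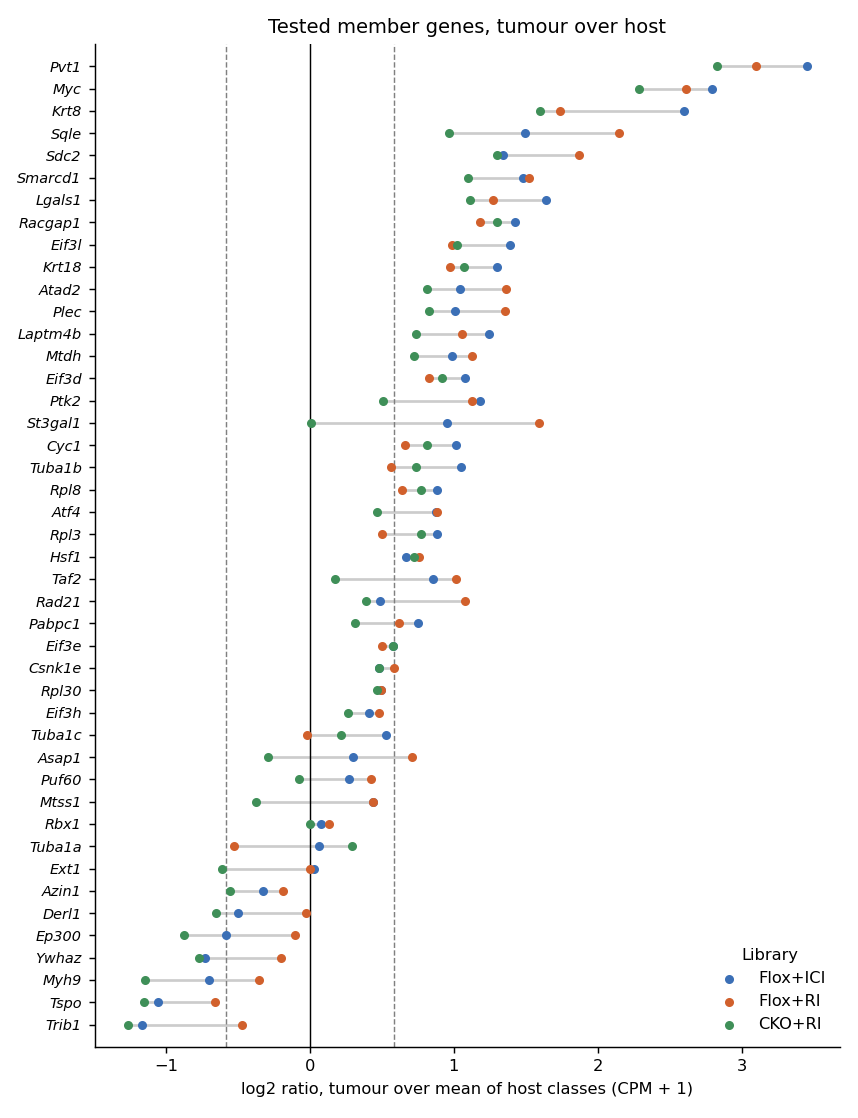
Log2 ratio of each tested member gene in tumour cells over the mean of the host classes (horizontal axis, 1 CPM added), 1 point per library, with genes ordered by their mean ratio. Dashed lines mark a 1.5-fold difference in either direction. Pvt1 and Myc lie furthest to the right, and Tspo is the one gene beyond the left line in all 3 libraries.

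Of the 8 growth-control members Pvt1, Myc and Mtdh were higher by the rule, and none was lower. Pvt1 (chr15:62037986-62378096, GRCm38) stood at 2365 CPM in tumour cells of Flox+ICI, 2106 in Flox+RI and 1663 in CKO+RI, against a host mean of 215, 245 and 233. Its ratio of 10.9, 8.57 and 7.11 was the largest of the tested members in each library. Myc (chr15:61985391-61990374) was at 153, 146 and 116 CPM in tumour cells and 21.2, 23.1 and 23.0 in the host mean, a ratio of 6.94, 6.12 and 4.89. For both genes the tumour level lay above every host class of its library. Mtdh, which encodes a membrane protein tied to tumour growth, had ratios of 1.98, 2.19 and 1.65. Csnk1e, a casein kinase, was at 1.39 in Flox+ICI and 1.40 in CKO+RI and did not meet the rule. Neither did Rbx1, a subunit of cullin ubiquitin ligases, at 1.06 and 1.09 in Flox+ICI and Flox+RI and level with the host in CKO+RI, at 185 CPM in both.

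Ranked by the largest of their 3 ratios, Trib1, Ywhaz and Azin1 were among the 5 lowest members, with Tspo and Myh9. Trib1, a pseudokinase that guides protein breakdown, had a ratio of 0.45, 0.72 and 0.42, and its highest host level was in neutrophils, at 550, 416 and 538 CPM. Ywhaz, a 14-3-3 adaptor, had 0.60, 0.87 and 0.59. Azin1, an inhibitor of antizyme in polyamine synthesis, had 0.80, 0.88 and 0.68. Ep300, at 0.67, 0.93 and 0.54, and Derl1, at 0.71, 0.98 and 0.63, lay below Azin1 in Flox+ICI and CKO+RI. Trib1, Ywhaz and Azin1 had a tumour level under the host mean in all 3 libraries, and position on the chromosome was not tested as a factor.

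The translation members held between 46.2% and 51.0% of the summed UMIs. Eif3l and Eif3d, subunits of the eIF3 complex that prepares the small ribosomal subunit, and Rpl8 of the large subunit passed the rule. Eif3h, Eif3e, Rpl3, Rpl30 and Pabpc1, the poly(A)-binding protein, did not. Rpl8 was at 6158, 8115 and 6011 CPM in tumour cells and at 3344, 5216 and 3521 in the host mean. Rpl3 had ratios of 1.84, 1.42 and 1.71, and Rpl30 had 1.41, 1.41 and 1.38. T cells held the highest host level of both in every library. Ribosomal protein genes have many near-identical pseudogenes, between which the authors' counting could split reads.

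Of the 8 chromatin and transcription members 3 were higher by the rule. Atad2 is a chromatin-bound bromodomain protein, Smarcd1 a subunit of the SWI/SNF remodelling complex and Hsf1 the regulator of the heat shock response. Rad21 of cohesin, Taf2 of TFIID, the stress factor Atf4, the acetyltransferase Ep300 and the splicing factor Puf60 were not. Smarcd1 stood at 44.5, 60.9 and 37.7 CPM against 15.3, 20.5 and 17.1 in the host mean, and above every host class.

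Among the 11 cytoskeletal members, keratin 8 stood out and the tubulins were uneven. Krt8, which pairs with Krt18 in the filaments of simple epithelia, was at 674, 849 and 736 CPM in tumour cells against 110, 254 and 242 in the host mean, with ratios of 6.06, 3.33 and 3.03. Its highest host level was in alveolar type 2 cells, at 377, 722 and 668 CPM. Krt18 had ratios of 2.46, 1.96 and 2.10, and its level in alveolar type 2 cells, at 327, 512 and 371 CPM, was above that of the tumour cells. Racgap1, which is needed for cell cleavage, had 2.69, 2.27 and 2.47, and the linker protein Plec also passed. Asap1, Ptk2, Mtss1, Tuba1a, Tuba1b and Tuba1c did not. Myh9, the heavy chain of non-muscle myosin, had ratios of 0.62, 0.78 and 0.45. The 3 tubulins are near-identical copies, and Krt8 and Krt18 have pseudogenes, so the split of reads among them is uncertain.

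The secretory and matrix members included the largest single part of the sum. Lgals1, the secreted lectin galectin 1, stood at 5661, 8937 and 6421 CPM in tumour cells and at 1818, 3696 and 2966 in the host mean, a ratio of 3.11, 2.42 and 2.16. Tumour cells lay above every host class, although fibroblasts of Flox+RI came close at 8427 CPM. Sdc2, a heparan sulphate proteoglycan, had ratios of 2.54, 3.65 and 2.47, and fibroblasts exceeded the tumour cells in every library, at 215, 106 and 141 CPM against 81.2, 99.7 and 69.4. Laptm4b of the lysosome passed the rule. The sialyltransferase St3gal1, the heparan sulphate polymerase Ext1 and Derl1 of the endoplasmic reticulum did not.

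Sqle of sterol synthesis and Cyc1 of the respiratory chain were higher, and Tspo was the member that was lower. Tspo, a protein of the outer mitochondrial membrane, stood at 451, 509 and 349 CPM in tumour cells and 937, 807 and 777 in the host mean, with ratios of 0.48, 0.63 and 0.45. Its highest host level was in neutrophils of Flox+ICI and CKO+RI and in monocytes of Flox+RI. Faim2 and Elfn2, both known from neurons, fell below the filter. They reached 13.3 and 9.89 CPM in tumour cells of Flox+RI and at most 1.27 CPM in those of the other libraries.

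Above every host class in all 3 libraries were 11 of the 44 tested members, where 12.2% of all tested genes were. They were Myc, Pvt1, Eif3l, Eif3d, Rpl8, Atf4, Lgals1, Tuba1b, Krt8, Smarcd1 and Plec. The erythroid cells of CKO+RI also lay below the tumour cells for all 11. Outside the list 55 of 344 chromosome 15 genes were above every host class. For 3 members, Eif3d, Atf4 and Racgap1, the 250 bases before the start of transcription are shown, because they come from 3 roles and are higher in tumour cells in each library. Eif3d and Atf4 are among the 11, and Racgap1 was higher by the 1.5-fold rule. In all 3 the start in RefSeq lies at or before the start in GENCODE M21, so that the bases precede both. The sequences are from RefSeq (GRCm38.p6), written 5′ to 3′ on the strand of the gene, with the GC box GGGCGG, read on both strands, in capitals. They lie at chr15:77970825-77971074 on the minus strand, chr15:80254934-80255183 on the plus strand and chr15:99651657-99651906 on the minus strand.
Eif3d: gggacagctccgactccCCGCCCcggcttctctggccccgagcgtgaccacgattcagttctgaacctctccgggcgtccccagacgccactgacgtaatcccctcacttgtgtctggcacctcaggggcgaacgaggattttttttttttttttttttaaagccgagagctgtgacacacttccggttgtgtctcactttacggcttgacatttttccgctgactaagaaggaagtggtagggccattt
Atf4: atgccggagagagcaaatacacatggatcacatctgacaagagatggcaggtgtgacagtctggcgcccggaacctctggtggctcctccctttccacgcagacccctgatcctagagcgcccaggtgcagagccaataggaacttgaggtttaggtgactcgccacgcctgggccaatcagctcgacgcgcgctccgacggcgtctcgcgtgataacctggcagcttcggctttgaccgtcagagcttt
Racgap1: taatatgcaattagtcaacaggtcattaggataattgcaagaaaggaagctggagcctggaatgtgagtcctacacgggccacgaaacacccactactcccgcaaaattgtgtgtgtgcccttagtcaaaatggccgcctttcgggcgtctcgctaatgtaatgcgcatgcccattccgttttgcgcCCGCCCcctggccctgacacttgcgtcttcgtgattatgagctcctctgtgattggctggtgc
Eif3d and Racgap1 each hold 1 GC box in this window and Atf4 holds 0, at a GC content of 54%, 52% and 59.2%. Of the members, 15 had an entry, with 18 promoters. For 9 of the 15 genes GENCODE places the start further upstream than RefSeq does, so the windows counted here, set by RefSeq, reach past that start. The GC box was in 77.8% of these promoters, against 32.7% of all 32851 promoters and 33.6% of those of other chromosome 15 genes. By gene it was in 11 of the 15, or 73.3%, and Csnk1e has several promoters with close starts. Promoters were compared whether or not the gene is expressed in these cells, and neither Myc nor Pvt1 had an entry. The median GC content was 61.8% in the members and 52.4% in all. The E-box CACGTG, the best known MYC motif, was in 0 of the 18 and in 6.02% of all promoters, CCAAT in 38.9% and 33.8%, and TATAAA in 5.56% and 12.4%. These matches describe letters in a window and say nothing of binding.

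Partners of the members encoded on other chromosomes were set beside them. Their lists were chosen with earlier results of these data known, so the counts are a description and no independent support. By the same 1.5-fold rule 20.1% of all 9537 tested genes were higher and 22.8% lower. Of 9 other eIF3 subunits 3 were higher in all 3 libraries (Eif3a, Eif3b and Eif3g) and none lower, and of 76 tested ribosomal protein genes 11 were higher and none lower. Of 6 tubulins Tubb6 was higher and Tubb2a lower. Among 4 keratin genes off chromosome 15, Krt19 was the one that reached the filter, and it was lower, unlike the members Krt8 and Krt18. It stood at 0.731, 0.758 and 0.687 CPM in tumour cells against 48.7, 52.3 and 58.8 in the host mean. Of 5 cohesin genes Smc1a and Smc3 were higher and Stag2 was lower, and 17 of 20 MYC targets were higher. The median log2 ratio of the eIF3 subunits was 0.67, 0.34 and 0.54, against 0.83, 0.66 and 0.75 for the 4 eIF3 members. For ribosomal proteins it was 0.66, 0.22 and 0.59, against 0.88, 0.50 and 0.77 for the 3 ribosomal members.

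Beyond the list, the chromosome 15 genes with the highest ratios included D030024E09Rik, Gm41333, Gm35019, Wnt7b and Ank. D030024E09Rik (chr15:61534676-61774451) and Gm41333 (chr15:62567975-62782787) flank Myc and Pvt1. D030024E09Rik stood at 87.8, 117 and 96.9 CPM against 3.87, 9.94 and 8.18 in the host mean, and Gm41333 at 80.3, 107 and 102 against 3.03, 12.2 and 9.79. Wnt7b, a secreted signal, had ratios of 9.05, 5.64 and 4.33, and Ank, a membrane transporter, 8.96, 8.36 and 4.0. The lowest were Gpihbp1 of capillary endothelium, the leukocyte GTPase Rac2 and the monocyte antigen Ly6c2, at ratios between 0.0098 and 0.021. Ranked by the median gene of tumour over host, chromosome 15 was number 6, 2 and 11 of 19 autosomes, and chromosome 12 was first in all 3 libraries.

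Single cells showed the same order as the sums. With each cell thinned to 2000 UMIs, the members took a median of 2.60% in tumour cells of Flox+ICI, 3.30% in Flox+RI and 2.60% in CKO+RI, against 1.35%, 1.60% and 1.45% in host cells. Before thinning the tumour medians were 2.65%, 3.33% and 2.62%. Of the tumour cells, 78.7%, 85.4% and 63.8% lay above the level that 95% of host cells did not pass, with exact binomial intervals of 77.2 to 80.3%, 83.6 to 87.0% and 61.7 to 65.8%. This level was set over all host cells of at least 2000 UMIs together, so it moves with the mix of classes. Macrophages were 817 of 2802, 1659 of 2175 and 500 of 2060 such cells. T cells also passed the level in 25%, 30.4% and 14.7% of cases, so the share is not particular to tumour cells. The chromosome 15 genes outside the list put 1.45%, 26.6% and 1.07% of tumour cells above their own host level. Of the host cells above that level, 113 of 139, 30 of 90 and 65 of 103 were endothelial. Thinning left out 48, 120 and 37 tumour cells, and 3443, 2425 and 1055 host cells.

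Between libraries, the whole of chromosome 15 was higher in tumour cells of Flox+RI, members and non-members alike. The members took 3.37% of tumour UMIs in Flox+RI and 2.68% in Flox+ICI, a ratio of 1.26, and the other chromosome 15 genes 2.90% and 2.36%, a ratio of 1.23. Per gene, relative to the median of all genes, which itself stood at -0.13, the members' median log2 ratio was 0.33 and that of the 314 other chromosome 15 genes tested was 0.35. In Flox+RI 42 of 44 tested members (95.5%) and 285 of the 314 others (90.8%) lay above that median. Chromosome 15 was the highest of 19 autosomes at 0.34, or 1.27-fold, while the other autosomes ranged from -0.15 on chromosome 13 to 0.13 on chromosome 3. This comparison was added after the values were seen.

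**Figure D3:**
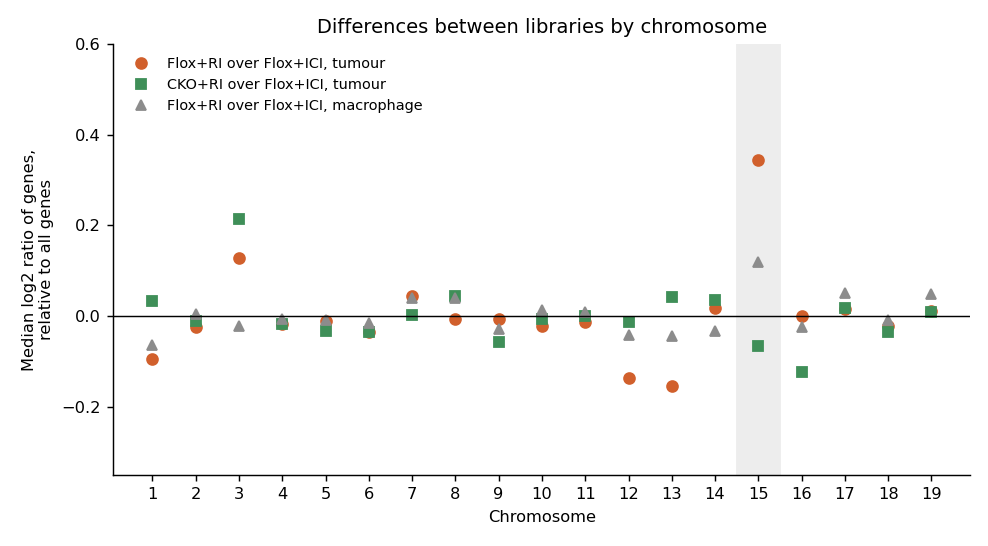
Median log2 ratio of the tested genes of each autosome, relative to all tested genes (vertical axis), by chromosome (horizontal axis), for tumour cells of Flox+RI and of CKO+RI over Flox+ICI and for macrophages of Flox+RI over Flox+ICI. Chromosome 15, shaded, stands at 0.34 in tumour cells of Flox+RI, at -0.07 in those of CKO+RI and at 0.12 in macrophages.

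The difference ran along the length of the chromosome. In windows of 10 Mb, the median gene was between 1.17-fold and 1.33-fold higher in Flox+RI relative to all genes, in all 11 windows. The windows without any member lay at 1.27-fold (0 to 10 Mb, 17 genes), 1.22-fold (10 to 20 Mb, 11 genes) and 1.17-fold (20 to 30 Mb, 7 genes). These values are of the gated tumour cells. With the unnamed Xist-low clusters added, the windows ran from 1.06-fold (60 to 70 Mb) to 1.34-fold (70 to 80 Mb). In the window from 60 to 70 Mb, which holds Myc and Pvt1, 8 of 12 genes then lay above the median of all genes. The 4 members there had a median log2 ratio of -0.04. The difference was also present within single clusters of tumour and Xist-low cells, at 1.21-fold to 1.29-fold in the 5 clusters compared (2, 3, 4, 8 and 11). The libraries filled these clusters unequally.

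**Figure D4:**
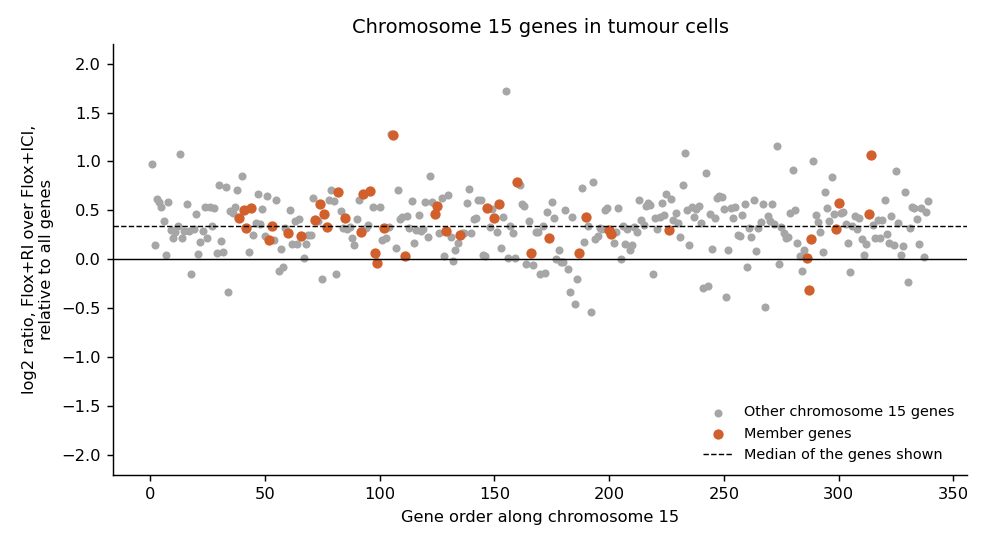
Log2 ratio of Flox+RI over Flox+ICI in tumour cells, relative to all genes (vertical axis), for 339 tested chromosome 15 genes in their order along the chromosome (horizontal axis). Member genes are coloured, the dashed line is the median of the genes shown, and 42 of the 44 members lie above 0. The medians in the text rest on a larger set, the 358 chromosome 15 genes tested in this comparison.

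In host cells of the same libraries the chromosome 15 genes outside the list differed less, and the members did not always. Over 7 host classes the genes outside the list had a median log2 ratio, relative to all genes, of -0.01 in endothelial cells to 0.18 in neutrophils, with 0.10 in macrophages and 0.03 in T cells. All chromosome 15 genes together stood between 0.01 and 0.20, and the chromosome was the highest of 19 autosomes in 5 of the 7 classes: macrophages, neutrophils, T cells, fibroblasts and alveolar type 2 cells. The members ran from 0.18 in T cells to 0.41 in fibroblasts. In 3 classes they exceeded the tumour value of 0.33, with 0.41 in fibroblasts, 0.41 in neutrophils and 0.37 in alveolar type 2 cells. The summed tumour markers were higher in Flox+RI than in Flox+ICI in all 7 classes. They stood at 833 against 488 CPM in alveolar type 2 cells, 462 against 318 in neutrophils and 635 against 537 in fibroblasts. In tumour cells they stood at 4997 against 3279 CPM. Free tumour RNA in host droplets was not measured on its own, and its part in the host values was not tested.

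Single tumour cells of Flox+RI were displaced as a body. Thinned to 10000 UMIs, the whole of chromosome 15 took a median of 5.08%, 6.35% and 4.89% of the RNA of a tumour cell, and the middle 90% of cells ran from 4.16 to 5.79%, from 5.10 to 7.25% and from 3.61 to 5.74%. In 93.1% of all pairs of 1 cell from each library the Flox+RI cell had the larger share than the Flox+ICI cell. The spread between cells, with an SD of 0.56, 0.66 and 0.67 percentage points, exceeded the 0.22, 0.24 and 0.21 that sampling alone gives. Chromosome 12 went the other way, with 5.56%, 4.72% and 5.58%. Thinning to this depth left out 631, 466 and 285 tumour cells.

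**Figure D5:**
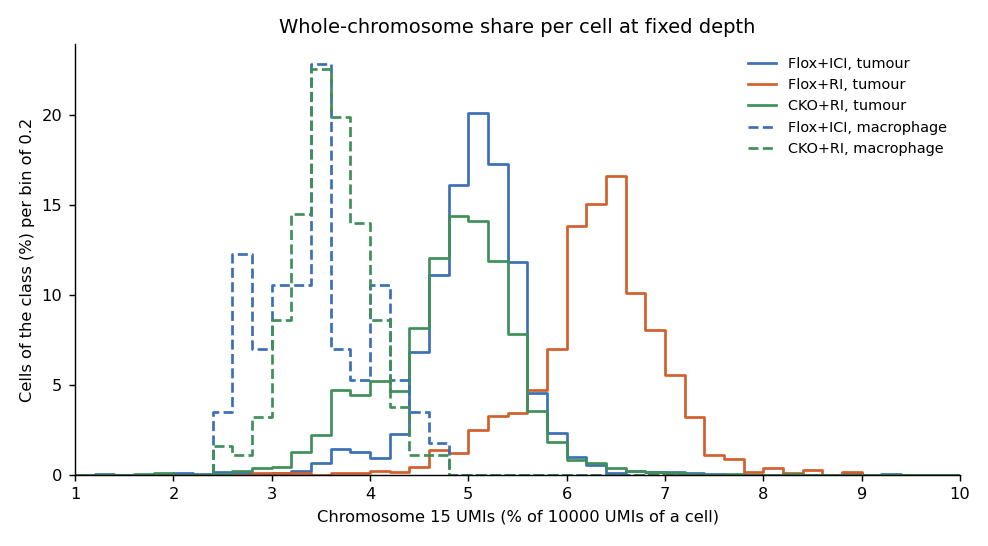
Share of chromosome 15 in the UMIs of single cells thinned to 10000 UMIs (horizontal axis) against the percentage of cells in each bin (vertical axis), for tumour cells (solid) and macrophages (dashed, where enough cells were deep enough) of each library. The Flox+RI tumour cells peak to the right of the other libraries, with a median of 6.35% against 5.08% and 4.89%.

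CKO+RI lay near Flox+ICI and below Flox+RI. Over Flox+RI, with which the previous comparison shares its library, the members took 2.67% of tumour UMIs against 3.37%, a ratio of 0.79, and the other chromosome 15 genes 2.16% against 2.90%, a ratio of 0.75. Chromosome 15 was the lowest of the 19 autosomes at -0.44 relative to all genes. In the 7 host classes it stood between -0.10 and -0.03, and it was the lowest of 19 in 3 of them, macrophages at -0.10, neutrophils at -0.10 and T cells at -0.07. The members stood between -0.34 and -0.06 in the host classes, against -0.43 in tumour cells. Over Flox+ICI it was at -0.07. Depth and composition also differed: tumour cells had a median of 14593, 15388 and 25642 UMIs, and the part of these in the differences was not tested. With 1 library a group, treatment, host genotype, the clone that seeded a tumour and the library cannot be told apart.

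Most tested members differed by less than 1.5-fold between Flox+ICI and Flox+RI. From Flox+ICI to Flox+RI 3 of 44 members were at least 1.5-fold higher, where 3.37% of all 8605 tested genes were, and none was lower, where 4.80% were. St3gal1 went from 190 to 420 CPM, a ratio of 2.21, Krt18 from 120 to 232 CPM, a ratio of 1.93, and Lgals1 from 5661 to 8937 CPM, a ratio of 1.58. The lowest were Tuba1a at 0.74, Pvt1 at 0.89 and Tuba1b at 0.92. Myc was at 0.96, so neither of the 2 members highest over host was among the 3 that were at least 1.5-fold higher. In the gated cells the log2 ratio of Myc, -0.07, lay above the median of all genes, -0.13, and that of Pvt1, -0.17, below it. With the unnamed Xist-low clusters added, Myc had a ratio of 0.78 and Pvt1 of 0.77. Both then lay below the median of all genes, which stood at a log2 ratio of -0.20.

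From Flox+RI to CKO+RI none of the 44 members was at least 1.5-fold higher, where 5.41% of all 8444 tested genes were, and 14 were lower (31.8%), where 10.4% were. St3gal1 stood at 94.3 against 420 CPM, a ratio of 0.22, Ext1 at 121 against 271 CPM, a ratio of 0.44, and Mtss1 at 76.2 against 150 CPM, a ratio of 0.51. The other 11 were Asap1, Rad21, Derl1, Mtdh, Myh9, Atf4, Ep300, Smarcd1, Plec, Hsf1 and Puf60. At the other end Tuba1a had a ratio of 1.42, Rpl3 of 1.12 and Rbx1 of 1.07. Pvt1 was at 0.79 and Myc at 0.79. These values are of the gated tumour cells. With the unnamed Xist-low clusters added, St3gal1 was at 0.46, Ext1 at 0.62 and Mtss1 at 0.74, the last no longer past 1.5-fold. Pvt1 was then at 0.81 and Myc at 1.01.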

How the data were processed

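The authors deposited raw UMI counts of 3 libraries, 1 matrix each, with no normalisation. Per the submitters' processing notes these came from Cell Ranger 6.0 on GRCm38 (mm10), while the file headers record version 6.1.2; the notes list Seurat 5.0.3 too, with no step attached. No source used here names the annotation the counts rest on. Chromosomes were taken from GENCODE M21, which matched 32235 of the 32285 genes. Depth per library is in the results, and 1 library per group leaves only counting error.

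Barcodes needed 200 genes and no more than 20% mitochondrial UMIs, and doublets were removed by scrublet score (scanpy 1.11.5) at 0.8% per 1000 barcodes. Cells were clustered without chromosome 15 genes (2000 variable genes, 30 components, 15 neighbours, Leiden resolution 1). Clusters were named from marker lists, with scoring thresholds set after the data were seen, and the names are not the authors'. UMIs were summed by class and library and given as CPM. The host level is the mean over named classes with at least 50 cells, leaving out erythroid cells, which departs from the rule as first written and concerns CKO+RI, where they numbered 192. Genes with a mean of at least 10 CPM were tested against a 1.5-fold rule, with 1 CPM added. No p-values were made. Intervals at 95% are exact binomial or conditional binomial (scipy 1.17.1). Genes named were Myc and Pvt1, the 5 largest contributors, the 5 highest by smallest and 5 lowest by largest ratio, the 3 furthest each way between libraries, and, off the list, the 5 highest and 3 lowest chromosome 15 genes. On simulated counts for the comparison of tumour with host, run over 8506 genes with each class at its own depth, all of the 72 tested genes raised 2-fold and 60 lowered 2-fold at or above 30 CPM were recovered, and below it 28 of 28 raised and 32 of 33 lowered. None of 8313 unchanged genes was called. Tumour and host counts were drawn from a shared profile with counting noise only. The simulation therefore cannot tell how often the real comparison calls a gene through variation between cells or animals. The simulated host depths and the split at 30 CPM were revised after earlier versions of this simulation, the first of which recovered fewer of the lowered genes. The members and lists were chosen with earlier results of these data known.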

Additional observations from a re-analysis of the deposited data

Results flagged for a closer look

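For 6 members the ratio of tumour to host lay below 1 in one library and above 1 in another, and these differences were not tested. Asap1, an Arf GTPase-activating protein, was at 0.82 in CKO+RI and 1.63 in Flox+RI. Ext1 was at 0.66 in CKO+RI and 1.02 in Flox+ICI, and Mtss1, a membrane-bending protein, at 0.77 and 1.36. Puf60 was at 0.95 in CKO+RI and 1.34 in Flox+RI. Tuba1a was at 0.69 in Flox+RI and 1.22 in CKO+RI, and Tuba1c at 0.98 in Flox+RI and 1.44 in Flox+ICI.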

How the results depend on the processing

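No paired analysis was possible because each group has 1 library and the labels give no replicate numbers. Lone libraries, marker-based names and RNA in place of DNA limit every comparison, and counting depth is not the limit for sums but is for members near 10 CPM. With no doublets removed, 308 cells of Flox+RI were named tumour. The cause of each difference below was not tested.

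The summed share of tumour over host stayed above 1 in all 3 libraries under every alternative run, from 1.19 to 2.39. Without the 5 largest members it was 1.39 in Flox+ICI and 1.19 in CKO+RI, and without mitochondrial and ribosomal protein genes 2.18 in Flox+RI. The count of members higher in all 3 libraries was 10 with no doublets removed (14.5% of all genes) and 7 at 2-fold (9.16%). Otherwise it ran from 15 to 23, and leaving out each library in turn from 18 to 23. In these other settings between 10.5% and 26.5% of all tested genes were higher. The count of members lower was 0 at resolution 2, without mitochondrial and ribosomal protein genes and at 2-fold. It was 2 with no doublets removed, at most 10% mitochondrial UMIs, all clusters with low Xist and centred ratios. It was also 2 with host classes with 50 cells in every library (added after the data were seen). Leaving out each library gave from 1 to 5, with 5 without Flox+RI. Over all settings between 16.9% and 26.4% of all tested genes were lower.

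The median log2 ratio of chromosome 15 genes outside the list, tumour over host, was 0.33, 0.54 and 0.16 without mitochondrial and ribosomal protein genes, 0.60 in Flox+RI with pooled host UMIs, and -0.069 in Flox+ICI and 0 in Flox+RI with any UMI in place of 10 CPM.

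The share of tumour cells above the host level, in the order Flox+ICI, Flox+RI and CKO+RI, was 65.0%, 38.0% and 34.6% with no doublets removed, 83.8%, 95.9% and 73.4% at 10% mitochondrial UMIs, 80.3%, 92.5% and 68.3% with all clusters with low Xist, 89.4%, 95.6% and 75.9% without mitochondrial and ribosomal protein genes, and 75%, 89.8% and 56.8% without Rpl3, Rpl8 and Rpl30. At 1000 UMIs it was 56.7%, 73.0% and 51.1%, and at 5000 UMIs 92.6%, 93.2% and 73.9%. In CKO+RI it was 67.9% at resolution 2 and 68.1% with chromosome 15 genes kept for clustering. With erythroid cells as a host class (added after the data were seen) it was 61.4% in CKO+RI, where the median of chromosome 15 genes outside the list was 0.03 in place of -0.02. With the other chromosome 15 genes in place of the members it was 1.45%, 26.6% and 1.07%.

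Between libraries the members' sum, Flox+RI over Flox+ICI and CKO+RI over Flox+RI, was 1.24 and 0.811 with no doublets removed, 1.34 and 0.759 at 10% mitochondrial UMIs, 1.26 and 0.798 at resolution 2, 1.24 and 0.818 with chromosome 15 genes kept for clustering, 1.34 and 0.746 with all clusters with low Xist, 1.31 and 0.765 without mitochondrial and ribosomal protein genes, 1.29 and 0.734 without the ribosomal members, 1.19 and 0.736 without the 5 largest, and 1.18 and 0.811 without keratins, tubulins and Lgals1. As a mean of shares per cell the first was 1.24. With any UMI 5 members were higher in Flox+RI, and at 2-fold 1 was, and 2 were lower in CKO+RI. The shares of all genes at these settings are not given here, so these counts are not set against a background. The chromosome 15 genes outside the list, relative to all genes, kept their direction under all 10 alternatives, added after the data were seen. Flox+RI over Flox+ICI and CKO+RI over Flox+RI they stood at 0.31 and -0.37 with no doublets removed, 0.13 and -0.19 with any UMI, and 0.29 and -0.35 with 10 CPM added.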
